A study of Mus musculus with 6 samples.

Results

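The nicotinic acetylcholine receptor of embryonic skeletal muscle and the genes that build the postsynaptic side of the neuromuscular junction were followed in the developing soft palate. The genes were listed by name from their known roles, but with earlier results of these data known, so the choice was not blind to them. They are 9 of the 21938 genes of the table. The receptor subunits are Chrna1, Chrnb1, Chrnd and Chrng, and the clustering genes are Musk, Dok7 and Rapsn. The others are the agrin receptor Lrp4 and the agrin gene Agrn. The subunit Chrne, which replaces Chrng in adult muscle, was not analysed here.

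Soft palate, the rear muscular part of the palate, was taken from mouse embryos at E14.0, and its RNA was sequenced in 3 control and 3 mutant libraries. Controls carried floxed β-catenin alleles (b-cateninfl/fl) according to the protocol text, although the genotype and strain fields call them wild type. Mutants carried the same floxed alleles together with Osr2-Cre, a recombinase expressed from Osr2, a gene of palatal mesenchyme. Cre is described in the mutants only, so an effect of the Cre allele and an effect of losing β-catenin cannot be told apart, and no label says whether a library is 1 embryo or a pool, so p-values reflect only how these libraries vary, which may be technical.

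At the neuromuscular junction, acetylcholine released by the motor axon opens a pentameric ion channel in the muscle membrane, and in the embryo that pentamer is made of α1, β1, δ and γ subunits. Agrin from the nerve binds LRP4 on the muscle fibre, LRP4 activates the receptor tyrosine kinase MuSK with the help of the adaptor DOK7, and the scaffold rapsyn then anchors receptors in dense clusters. Transcription of the muscle genes among these begins as myoblasts differentiate, under myogenic basic helix-loop-helix factors such as MyoD and myogenin, which bind the E-box, CANNTG. Palatal muscle derives from cranial mesoderm, whereas the palatal mesenchyme in which Osr2 is expressed derives largely from neural crest.

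Because E-boxes are the best known elements of these muscle promoters, the 250 bases before the RefSeq start are shown for 4 genes that are largely restricted to muscle and, for contrast, for Agrn, which is expressed in many tissues. The sequences are from RefSeq (GRCm38.p6), are written 5′ to 3′ on the strand of the gene, and have each CANNTG in capitals. Chrng lies on the plus strand at chr1:87205561-87205810, a stretch that is intronic in one longer GENCODE transcript of the gene. Chrna1 lies on the minus strand at chr2:73580339-73580588, Musk on the plus strand at chr4:58285712-58285961, Dok7 on the plus strand at chr5:35056516-35056765 and Agrn on the minus strand at chr4:156197489-156197738.
Chrng: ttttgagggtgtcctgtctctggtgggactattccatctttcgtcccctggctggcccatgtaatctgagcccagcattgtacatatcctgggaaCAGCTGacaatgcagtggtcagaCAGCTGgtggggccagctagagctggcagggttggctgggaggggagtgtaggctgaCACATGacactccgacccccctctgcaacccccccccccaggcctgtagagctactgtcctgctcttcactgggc
Chrna1: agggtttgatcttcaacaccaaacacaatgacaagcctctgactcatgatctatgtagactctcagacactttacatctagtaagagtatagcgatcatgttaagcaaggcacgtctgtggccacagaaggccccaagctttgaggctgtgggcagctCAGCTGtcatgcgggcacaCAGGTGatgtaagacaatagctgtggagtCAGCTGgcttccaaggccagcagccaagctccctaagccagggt
Musk: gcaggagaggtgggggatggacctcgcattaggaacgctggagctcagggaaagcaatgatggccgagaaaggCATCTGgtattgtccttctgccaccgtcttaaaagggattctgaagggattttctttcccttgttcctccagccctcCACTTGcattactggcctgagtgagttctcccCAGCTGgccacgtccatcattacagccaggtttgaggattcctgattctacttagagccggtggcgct
Dok7: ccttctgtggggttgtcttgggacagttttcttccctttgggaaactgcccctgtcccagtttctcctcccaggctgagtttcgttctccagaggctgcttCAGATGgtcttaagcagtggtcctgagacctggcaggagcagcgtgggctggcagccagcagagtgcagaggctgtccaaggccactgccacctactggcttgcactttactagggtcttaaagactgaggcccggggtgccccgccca
Agrn: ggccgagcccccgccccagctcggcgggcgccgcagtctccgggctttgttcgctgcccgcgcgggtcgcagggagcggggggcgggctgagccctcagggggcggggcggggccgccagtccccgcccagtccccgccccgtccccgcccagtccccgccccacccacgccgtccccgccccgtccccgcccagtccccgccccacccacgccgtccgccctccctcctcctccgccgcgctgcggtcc

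Chrng held 3 E-boxes, starting 155, 132 and 75 bases before the start, and 2 of them read CAGCTG. Chrna1 held 3 E-boxes, at 92, 73 and 44 bases, of which 2 read CAGCTG and the other CACCTG on one of the strands. Musk held 3 at 177, 100 and 68 bases, 1 of them CAGCTG, and Dok7 held 1 at 149 bases, which is not CAGCTG. Chrnb1, whose window is not printed because it overlaps a neighbouring transcript, held 3 E-boxes at 119, 96 and 29 bases, none of them CAGCTG and 1 of them CACCTG. The Agrn window held none, and 83.6% of its bases were G or C, a content at the 99.7th percentile of all windows, whose median was 52.4%. Of the 32851 windows of the same length in the table, 66.2% held a CANNTG on either strand and 31.8% at least 2. CAGCTG and CACCTG, which are forms of that motif, were in 13.0% and 17.2% of windows, and 1.26% held at least 2 CAGCTG. The ETS-type motif CCGGAA, found in 12.0% of windows, was in none of the members' windows. Dok7 and Agrn each have a second entry, with 0 and 1 E-box. These matches describe letters in a window and say nothing of binding. Chrnd, Rapsn and Lrp4 are named only.

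As for the libraries, the spacing of low values put the counted reads at 10018409 to 15088618 per library, and 3 reads, the most that a count of 0 allows, are worth 0.199 to 0.299 CPM, the unit of the table (a gene's reads scaled to a common library total). None of the 9 genes was near that floor: the lowest was Dok7, with about 30 to 79 reads per library. In the gene targeted by the cross, Ctnnb1, the controls measured 698.5, 784.5 and 671.4 CPM and the mutants 584.6, 633.4 and 581.5 CPM (adjusted p = 0.183, limma), a value over the whole gene that does not check the deleted part. Osr2 itself stood at 46.9 ± 11.2 CPM in controls and 16.1 ± 3.22 CPM in mutants (SD, n = 3 each; adjusted p = 0.0285, limma). Skeletal muscle markers were present in every library. The 22 genes of a sarcomere list, the contractile apparatus, summed to between 8589 and 18272 CPM in controls and between 5757 and 7141 CPM in mutants. Ttn alone gave 7086 of the mean sum of 13356 CPM in controls and 3532 of 6281 CPM in mutants. Control replicate 3 and mutant replicate 7 stood apart in Xist, at 1188 and 2054 CPM against 13.1 to 17.3 CPM in the other 4.

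The 4 receptor subunits and the 3 clustering genes were lower in every mutant library than in every control library, at 37.8 to 61.3% of the control mean, while Lrp4 and Agrn overlapped between the groups. With limma on log2(CPM + 1) and Benjamini-Hochberg adjustment over all genes, 2 of the 9 genes fell at an adjusted p below 0.05, Chrng and Dok7, where 0.283% of all genes were called lower and 0.479% called in either direction. At an adjusted p below 0.1, 4 of the 9 were lower, beside 1.72% of the table. With no adjustment, 7 of the 9 had a p below 0.05 and were lower, beside 8.07%. Every mutant value lay below every control value in the same 7 genes, a separation that 10.8% of all genes showed. The median log2 difference of the 9 genes was -0.89, beside 0.04 over all genes. In bulk tissue, fewer muscle cells and less RNA per muscle cell cannot be told apart.

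**Figure D1:**
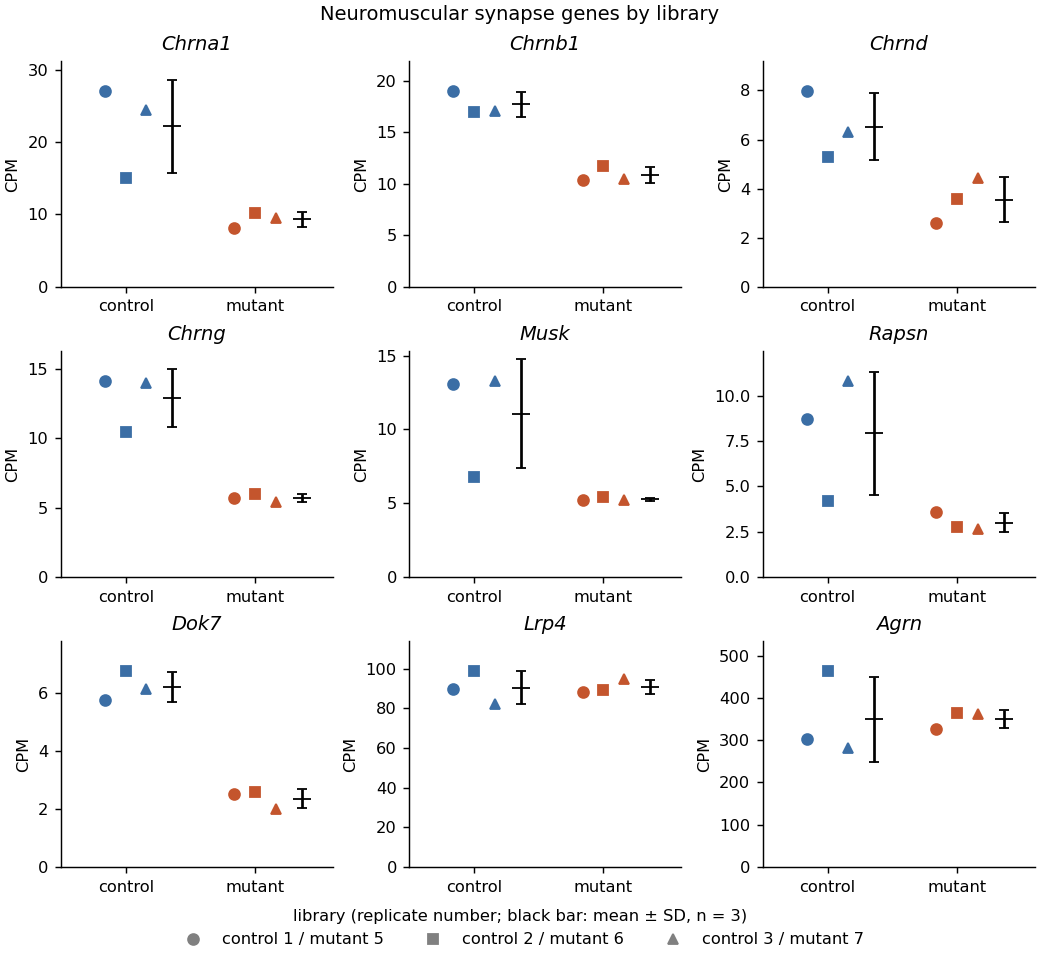
CPM of each of the 9 genes in the 3 control (blue) and 3 mutant (orange) libraries, with the black bar at the mean ± SD (n = 3); each vertical axis starts at 0 and the symbol shapes name libraries without pairing them. The groups are apart in 7 genes and overlap in Lrp4 and Agrn.

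The γ subunit gene Chrng (chr1:87204657-87212694, plus strand, GENCODE vM21, GRCm38) encodes the subunit that marks the embryonic form of the receptor. It measured 14.16, 10.48 and 14.02 CPM in control replicates 1, 2 and 3 and 5.70, 6.01 and 5.43 CPM in mutant replicates 5, 6 and 7. The lowest control was still well above the highest mutant, and the 3 mutants lay close together. The mean fell from 12.9 ± 2.08 to 5.71 ± 0.286 CPM (SD, n = 3 each), 44.4% of control, with a log2 difference of -1.04 ± 0.16 (SE; 95% interval -1.41 to -0.66; adjusted p = 0.0419, limma).

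Chrna1 (chr2:73563215-73580338, minus strand) encodes the α1 subunit, which carries most of the acetylcholine binding site and is the only subunit present as a pair. Its values were 27.1, 15.0 and 24.4 CPM in controls and 8.15, 10.3 and 9.54 CPM in mutants. Control replicate 2 lay nearer the mutants than the other controls did, but the groups did not overlap. The mutant mean of 9.32 ± 1.08 CPM was 42.1% of the control mean of 22.2 ± 6.37 CPM, and the log2 difference of -1.13 ± 0.21 (SE; 95% interval -1.62 to -0.64) did not pass the threshold (adjusted p = 0.0580, limma).

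Chrnb1 (chr11:69784036-69795943, minus strand), the β1 subunit gene, encodes a structural subunit that does not form the acetylcholine binding site. It measured 19.04, 16.97 and 17.05 CPM in controls and 10.35, 11.71 and 10.47 CPM in mutants, with little spread in either group. Means of 17.7 ± 1.17 and 10.8 ± 0.752 CPM gave a log2 difference of -0.66 ± 0.13 (SE; 95% interval -0.95 to -0.37; adjusted p = 0.0618, limma).

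The δ subunit gene Chrnd (chr1:87190607-87200070, plus strand) lies 4.6 kb before Chrng on the same strand. Controls measured 7.998, 5.290 and 6.307 CPM and mutants 2.61, 3.57 and 4.44 CPM, from about 32 to 100 reads per library. The gap between the lowest control and the highest mutant was narrow. The log2 difference of -0.73 ± 0.22 (SE; 95% interval -1.24 to -0.23) did not pass the threshold (adjusted p = 0.121, limma), although the mutant mean was 54.2% of the control mean.

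Differences between subunits were compared within each library, as one gene's log2(CPM + 1) minus another's. Chrna1 minus Chrnb1 was 0.49, -0.17 and 0.49 in controls and -0.31, -0.17 and -0.12 in mutants. Control replicate 2 lay among the mutants on this measure, and the mean difference between groups of -0.47 had an exact permutation p of 0.2 (two-sided; 0.2 after adjustment over the 6 pairs compared). Chrng minus Chrnb1 averaged -0.44 ± 0.19 in controls and -0.82 ± 0.05 in mutants (SD, n = 3 each) without overlap, which is the smallest exact p that 3 against 3 libraries allow, 0.1 (adjusted 0.12).

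Among the clustering genes, Musk (chr4:58285960-58374303, plus strand) encodes the muscle-specific kinase at the centre of the pathway. It measured 13.1, 6.79 and 13.3 CPM in controls and 5.215, 5.398 and 5.235 CPM in mutants. The mutants were almost identical, and control replicate 2 lay close above them, far from the other 2 controls. The mutant mean of 5.28 ± 0.1002 CPM was 47.7% of the control mean of 11.1 ± 3.71 CPM, with a log2 difference of -0.89 ± 0.24 (SE; 95% interval -1.44 to -0.34; adjusted p = 0.104, limma).

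Dok7 (chr5:35056766-35087839, plus strand), the cytoplasmic activator of MuSK, was the second gene to pass the threshold. It stood at 5.76, 6.79 and 6.15 CPM in controls and 2.53, 2.58 and 1.99 CPM in mutants, and here control replicate 2 was the highest control. The mean fell from 6.23 ± 0.519 to 2.37 ± 0.329 CPM, 38.0% of control, and the log2 difference was -1.11 ± 0.18 (SE; 95% interval -1.51 to -0.70; adjusted p = 0.0444, limma).

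Rapsn (chr2:91035620-91045729, plus strand) encodes rapsyn, the scaffold that binds the receptor's cytoplasmic loops. Its values were 8.72, 4.19 and 10.8 CPM in controls and 3.59, 2.74 and 2.65 CPM in mutants, so the controls varied more among themselves than the lowest of them differed from the mutants. The mutant mean was 37.8% of the control mean, the lowest share of the 9 genes, yet the log2 difference of -1.08 ± 0.30 (SE; 95% interval -1.76 to -0.41) did not pass the threshold (adjusted p = 0.105, limma). The gene overlaps the antisense transcript Gm13778, which was not analysed here, and whether reads were counted by strand (not given in the sources used here) decides how far the pair can be told apart.

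The calls changed with the libraries included, for these genes and for the whole table alike. Without control replicate 2, the lowest control in 6 of the 7 genes, 5 of the 9 were called: Chrna1 (adjusted p = 0.0167), Musk (0.0227), Chrng (0.0231), Rapsn (0.0291) and Dok7 (0.045), all by limma, and 452 genes of the table, or 2.06%, were called in either direction where 105 were with all libraries. Without any 1 of the other 5 libraries, control or mutant, none of the 9 was called, and neither were more than 2 genes of the table. With a prior variance without trend, or with the Xist level as a covariate, no gene of the table was called. The log2 differences of the 7 genes were negative in each of the 6 fits that left out a library, from -1.43 to -0.58.

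Lrp4 and Agrn, the receptor and the ligand at the head of the pathway, are both widely expressed outside muscle: LRP4 also acts as a Wnt and BMP modulator in limb and tooth, and agrin is a heparan sulphate proteoglycan of basement membranes. Lrp4 (chr2:91457511-91513779, plus strand) measured 89.5, 98.9 and 82.3 CPM in controls and 88.0, 89.4 and 94.6 CPM in mutants. The groups overlapped throughout, and the log2 difference was 0.01 ± 0.09 (SE; 95% interval -0.20 to 0.22; adjusted p = 0.963, limma). The interval leaves room for a change of that size in either direction, but it does not reach the log2 differences measured for the 7 genes above.

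Agrn (chr4:156165290-156197488, minus strand) was the most abundant of the 9, at 301.9, 464.2 and 281.2 CPM in controls and 326.2, 365.1 and 361.0 CPM in mutants. All 3 mutants lay within the range of the controls, of which replicate 2 was the highest. The log2 difference was 0.04 ± 0.17 (SE; 95% interval -0.35 to 0.44; adjusted p = 0.913, limma). The deposited gene total does not separate agrin's nerve-type splice form, which clusters receptors, from the forms made elsewhere. Summed epithelial markers, 8 genes, stood at 919, 1543 and 1389 CPM in controls and 1174, 1768 and 1509 CPM in mutants, and their part in the Agrn values was not tested.

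Within libraries, Chrna1 was compared with both genes of this upstream pair and Musk with Lrp4; the other 5 muscle genes were not compared with them in this way. Chrna1 minus Agrn was -3.43, -4.86 and -3.48 in controls and -5.16, -5.02 and -5.10 in mutants, a mean difference of -1.17 on the log2 scale. Chrna1 minus Lrp4 differed by -1.14 and Musk minus Lrp4 by -0.90. The groups did not overlap in any of these 3 pairs, each of which had the smallest possible exact permutation p of 0.1 (adjusted 0.12), so no pair could pass the threshold in this design.

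**Figure D2:**
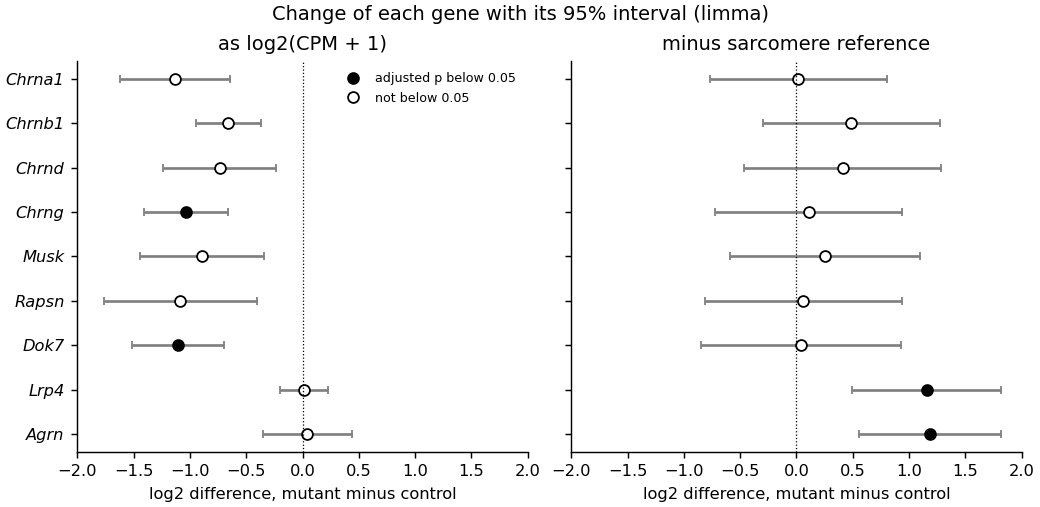
Log2 difference between mutant and control with its 95% interval for each gene, on log2(CPM + 1) (left) and after subtracting the library's mean over the 22 sarcomere genes (right); filled points have an adjusted p below 0.05 in limma. On the left 7 intervals lie below 0, and on the right those of the same 7 genes include 0 while Lrp4 and Agrn lie above it. The widths on the right come from variance pooled over genes of similar level.

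Per length, as CPM per kb of exon, levels could be ordered between genes. The length joins all annotated exons of a gene and is not that of the transcripts expressed here, so the order depends on it. Agrn led in controls at 37.6 ± 10.8, followed by Lrp4 at 8.59 ± 0.793 and Chrnb1 at 6.99 ± 0.462 (SD, n = 3 each). Chrna1 followed at 5.05, Rapsn at 4.39, Chrng at 3.09, Musk at 2.93, Chrnd at 1.99 and Dok7 at 1.46. The control ranges were apart between Agrn and Lrp4, Lrp4 and Chrnb1, Chrnb1 and Chrna1, and Chrnd and Dok7, and overlapped for the other 4 neighbouring pairs. In mutants the levels were 37.8 for Agrn, 8.63 for Lrp4, 4.28 for Chrnb1 and 2.12 for Chrna1, down to 0.554 for Dok7. Among the subunits the order β1, α1, γ, δ was the same in the means of both groups. In CPM without the length, Chrna1 stood above Chrnb1 in control means (22.2 and 17.7 CPM) and below it in mutant means (9.32 and 10.8 CPM).

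The members were next set against contractile transcript of the same library, by subtracting the mean log2(CPM + 1) of the 22 sarcomere genes. All 22 of those genes had a negative log2 difference, with a median of -1.15. Of the 22, 6 fell at an adjusted p below 0.05, where 0.283% of all genes were called lower. Among these 6 were Acta1, skeletal α-actin, from 341 ± 71.1 to 122 ± 31.1 CPM (adjusted p = 0.0285, limma), and Tnni1, slow troponin I, from 73.5 ± 17.8 to 27.9 ± 1.23 CPM (adjusted p = 0.0276, limma). On that scale Chrna1 measured -2.88, -2.79 and -2.67 in controls and -2.78, -2.88 and -2.62 in mutants, and the groups overlapped. Its difference was 0.02 (95% interval -0.77 to 0.80; adjusted p = 0.970, limma), an interval wide enough to hold a change of more than 1.5-fold either way. That width comes from variance pooled over genes of similar level, not from Chrna1 itself, whose values lay between -2.88 and -2.62. The intervals of the other genes on this scale have the same source. Width and adjusted p therefore say little of how closely each gene followed contractile transcript. Differences for Rapsn, Dok7 and Chrng were 0.06, 0.04 and 0.11, and those for Musk, Chrnd and Chrnb1 were 0.26, 0.41 and 0.49, with adjusted p from 0.231 to 0.931 in limma.

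Among the settings tried, 1 of the 7 was called in one of them, Chrnb1: without control replicate 2 its difference was 0.70 (adjusted p = 0.0275, limma). Lrp4 and Agrn were higher relative to the sarcomere genes by 1.16 (95% interval 0.50 to 1.81; adjusted p = 0.00209, limma) and 1.19 (95% interval 0.56 to 1.82; adjusted p = 0.00121, limma). These 2 of 9 stand beside 88.7% of all genes called higher on the same scale, since the reference itself was lower in mutants.

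**Figure D3:**
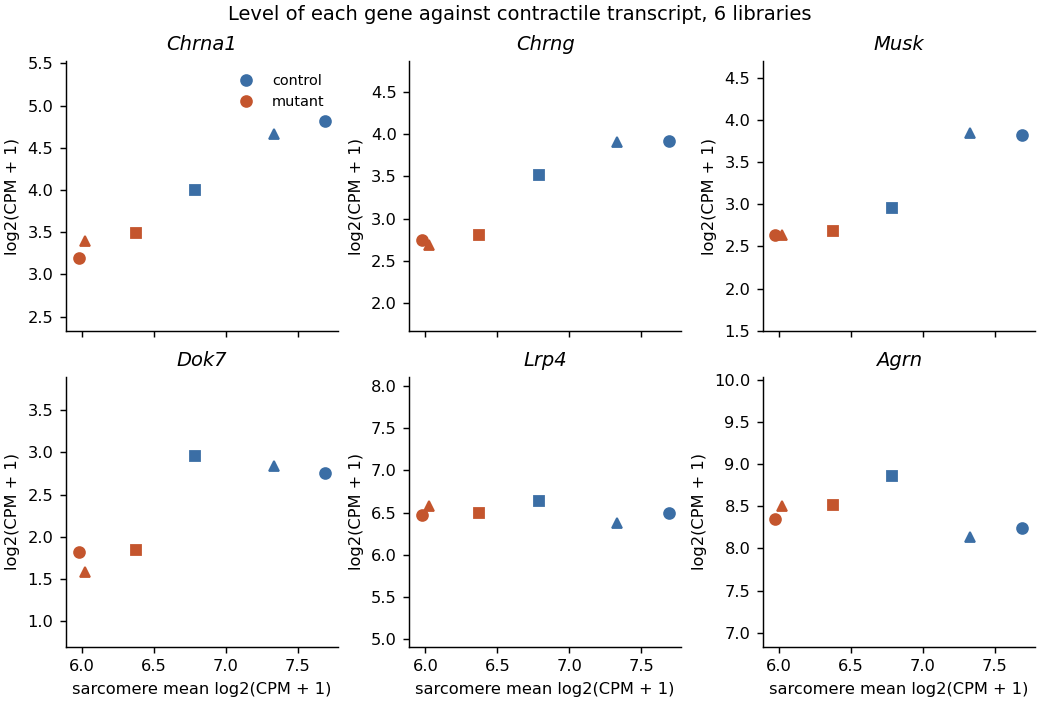
Log2(CPM + 1) of 6 of the genes in each library against the library's mean log2(CPM + 1) over the 22 sarcomere genes (controls blue, mutants orange, the same symbol shapes for the libraries). Chrna1, Chrng and Musk are low where contractile transcript is low. Dok7 is split by group, and among the controls it is higher where contractile transcript is lower. Lrp4 and Agrn follow neither order.

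Against the muscle transcription factors, the reading was different. Myog, myogenin, fell from 64.1 ± 15.3 to 21.6 ± 1.42 CPM (adjusted p = 0.0276), Myod1 from 26.2 ± 6.93 to 9.63 ± 0.672 CPM (adjusted p = 0.0352) and Pax7, a factor of muscle progenitors, from 13.3 ± 1.59 to 4.25 ± 0.414 CPM (adjusted p = 0.0271), all by limma. Myf5, an early myogenic factor, stood at 4.47 and 1.58 CPM (adjusted p = 0.0915). These were 3 called lower of 13 myogenic regulators, beside 0.283% of all genes, with a list median of -0.74. Chrna1 minus Myog was -1.44, -1.58 and -1.49 in controls and -1.20, -1.01 and -1.18 in mutants, so every mutant lay above every control and Chrna1 was lower by less than Myog, by 0.37 on the log2 scale (exact permutation p = 0.1, the smallest possible; adjusted 0.12). With the mean of all 13 regulators as the reference, the 7 muscle members had differences of -0.48 for Chrna1 to -0.01 for Chrnb1, and none passed the threshold (adjusted p from 0.0733 to 0.980, limma). Lrp4 and Agrn were again called higher on this reference, by 0.66 (adjusted p = 0.00352, limma) and 0.69 (adjusted p = 0.00416, limma), as were 69.9% of all genes.

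By likeness, the 5 genes whose profile over the 6 libraries lay nearest to the mean centred log2 profile of Chrna1, Chrnd and Chrng were taken from 13439 genes with a mean of at least 5 CPM. They were Fndc3c1 (root mean square distance 0.0685), Fam78a (0.0744), Cap2 (0.0760), Fndc5 (0.0809) and Myo18b (0.0920). Fndc5 encodes the precursor of irisin and Myo18b an unconventional myosin of striated muscle. Fndc5 went from a control mean of 39.2 to a mutant mean of 18.2 CPM, and Myo18b from 41.7 to 19.4 CPM.

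Other genes of the synapse and of its regulation were taken from lists by role, 65 measured of 71 listed. Of these 65, none was called higher and 1 lower at an adjusted p below 0.05, and at an unadjusted p below 0.05, 3 were higher and 14 lower, where 13.4% of all genes were higher and 8.07% lower. At an adjusted p below 0.1, 1 was higher and 2 lower, a share near the 4.55% of all genes called in either direction. Their median log2 difference was -0.15. The called gene was Cacna1s, the voltage sensor of muscle excitation. It came from a list of 6 activity regulators (median -0.26), not from the lists of synapse parts. Its values were 24.0, 16.5 and 23.2 CPM in controls and 9.11, 9.76 and 9.24 CPM in mutants. The mutants were again nearly equal and lay below all controls, and the log2 difference was -1.08 ± 0.16 (SE; adjusted p = 0.0369, limma).

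Acetylcholine breakdown showed lower values without a call in its 4 genes, with a median of -0.53 and 1 gene lower at an unadjusted p below 0.05. Ache, acetylcholinesterase, averaged 18.7 ± 3.54 CPM in controls and 11.4 ± 4.13 CPM in mutants (adjusted p = 0.149, limma), and the groups overlapped because mutant replicate 5 measured 15.97 CPM, above control replicate 2 at 14.97 CPM. Colq, the collagen tail that anchors the enzyme in the cleft, stood at 3.41 and 2.03 CPM (adjusted p = 0.316, limma). The 6 neuronal nicotinic subunits measured had no call and a median of -0.19, and Chrna4 had the smallest p among them (5.35 and 3.496 CPM; adjusted p = 0.354, limma).

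None of 18 further genes of agrin and MuSK signalling was called by limma, with 1 higher and 2 lower at an unadjusted p below 0.05, and their median was -0.04. Sorbs2, an adaptor of the actin cytoskeleton, had the smallest p, at 48.4 ± 5.58 CPM in controls and 70.8 ± 16.6 CPM in mutants (adjusted p = 0.148, limma). The 18 genes of the dystroglycan and laminin complex, which stabilises receptor clusters, had no call at 0.05 and a median of -0.16, with 2 higher and 5 lower at an unadjusted p below 0.05. Utrn, utrophin, the synaptic relative of dystrophin, measured 460.7, 476.9 and 421.1 CPM in controls and 591.0, 558.1 and 594.1 CPM in mutants, all mutants above all controls (adjusted p = 0.0877, limma). Sgca, α-sarcoglycan, a component specific to striated muscle, was 2.87 ± 0.903 CPM in controls and 1.03 ± 0.0831 CPM in mutants (adjusted p = 0.0861, limma), also without overlap and in the opposite direction.

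The neuregulin and ETS list, which holds the synaptic transcription pathway, had no call in 8 genes, 3 of them lower at an unadjusted p below 0.05, and a median of -0.25. Etv5, the factor also called ERM, measured 35.9 ± 5.01 CPM in controls and 26.4 ± 3.46 CPM in mutants (adjusted p = 0.143, limma), and its relative Etv4 5.48 ± 1.04 and 3.07 ± 0.401 CPM (adjusted p = 0.118, limma). The 5 glycosylation genes whose loss weakens the human junction had no call and a median of -0.15, led by Alg2 (adjusted p = 0.174, limma).

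**Figure D4:**
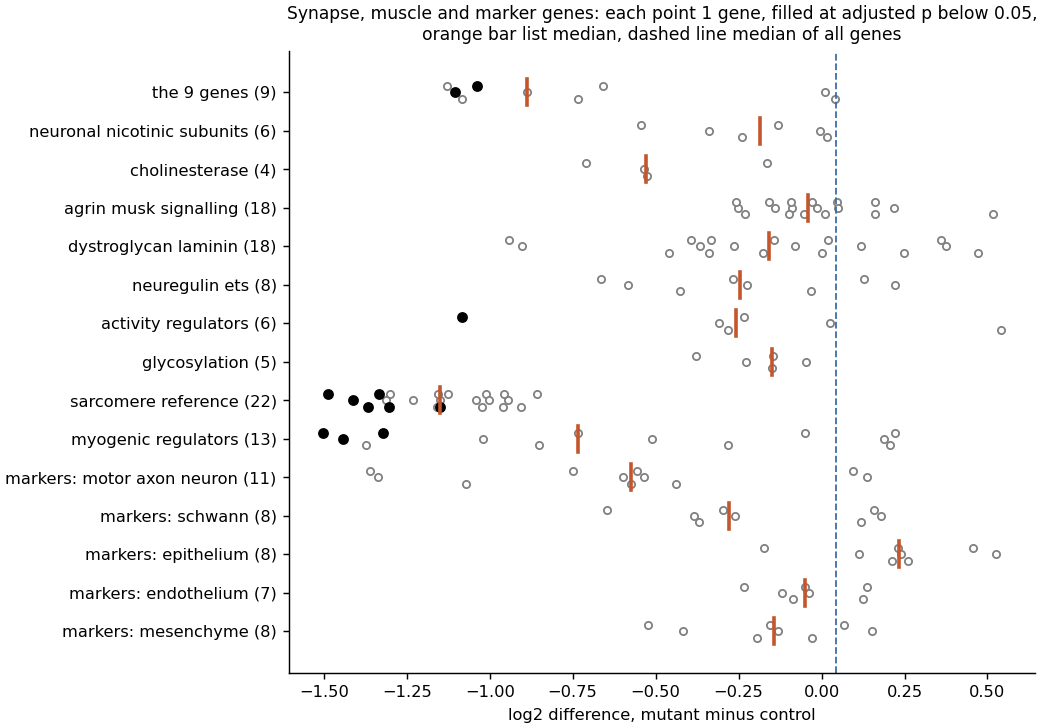
Log2 difference of every measured gene in the 9-gene group and in each list, with the number of genes in parentheses; each point is 1 gene, filled where its adjusted p is below 0.05, the orange bar is the list's median and the dashed line the median of all genes. The 9 genes divide into 7 at the left and 2 at the dashed line. Of the 7, Chrnb1 (-0.66) and Chrnd (-0.73) lie nearer 0 than any sarcomere gene on this scale, whose differences run from -1.49 to -0.86. The scale understates changes of low genes such as Chrnd, which was at -0.88 with a pseudocount of 0.1. In mean CPM, Chrnd stood at 54.2% of control and the sarcomere gene Tnnt3 at 52.7%.

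Markers of nerve were also detected. The 11 neuron markers measured, among them the cholinergic genes Chat, Slc18a3 and Slc5a7, summed to 449, 527 and 911 CPM in controls and 778, 150 and 252 CPM in mutants, so mutants 6 and 7 were low and mutant 5 was not. None of the 11 was called by limma or had an unadjusted p below 0.05, and none was at 0 in any library, with Chat, which makes acetylcholine, lowest at 0.331 to 1.96 CPM. The 8 Schwann cell markers, of the glia along motor axons, summed to 59.2 to 66.7 CPM in controls and 39.0 to 91.6 CPM in mutants, without a call. The part of nerve in the differences of the 9 genes was not tested.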

How the data were processed

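RNA of 6 soft palate libraries was sequenced. The aligner was STAR and the build mm10, per the submitters' processing notes, without a version (counter and annotation: not given in the sources used here). The deposited values are CPM, with a constant of 0.0001 added to each by the authors, as the values show; it was subtracted. Samples are rows, and 0 columns were left unused. A second deposited table, titled as the filtered feature list of a differential analysis, holds 2432 of the 21938 genes with identical CPM. Among them are 7 of the 9 described here, those lower in mutants, but not Lrp4 or Agrn. Low values were whole reads (within 0.02) in 58.3 to 70.8% of cases, so no count model was used, and read numbers are estimates that cover counting error only.

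CPM were taken as log2(CPM + 1), a scale that understates changes of low genes, and compared with limma 3.58.1 in R 4.3.3 (intensity trend in the prior variance, no filter, Benjamini-Hochberg over 21938 genes, threshold 0.05). Pairs of genes were compared by exact permutation. The test was checked on simulated data in which each gene varied independently. That check does not cover variation shared by many genes of a library. Positions and exon lengths came from GENCODE vM21 (GRCm38, the assembly mm10 names), which matched 21371 genes (97.4%) by symbol, and sequences from RefSeq, with entries for 6 of the 9 genes.

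The 9 genes, the lists and the rule for named genes were chosen with earlier results of these data known. The rule names all 9, the called genes or otherwise up to 3 smallest p per list, a few fixed regulators and the 5 nearest profiles, passing over clone identifiers and pseudogenes; some that it allows are given only by count. Alternatives changed the pseudocount (0.1), a filter at a mean of 1 CPM, library scaling, the prior variance, an Xist covariate, the threshold, the reference list and each library in turn.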

Additional observations from a re-analysis of the deposited data

How the results depend on the processing

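No paired analysis was possible because the groups share no replicate numbers. The count of 2 of the 9 genes called became 0 with a prior variance without trend and 0 with the Xist level as a covariate, 4 at an adjusted p threshold of 0.1, and 0 to 5 when a library was left out; it was within 1.5 times of 2 under the other settings. The whole table's calls moved too, from 105 to 0 in the first 2 of these fits and to between 0 and 452 when a library was left out. In the fits that gave 0 of the 9, Chrng and Dok7 had adjusted p from 0.0702 to 0.214 (limma). Calls among the 65 genes of the other lists of the synapse and its regulation went from 1 to 3 at a threshold of 0.1, where 4.55% of all genes were called. Over 108 values of single genes in 12 other fits, 87 kept direction and side of the threshold, 14 were weaker, 3 stronger and 4 reversed. The reversals came from leaving out a library, over which Agrn ranged from -0.0955 to 0.265 and Lrp4 from -0.0537 to 0.0774. Relative to muscle references, signs near 0 turned. With myogenic regulators as reference the differences were Chrna1 -0.479, Chrnb1 -0.00646, Chrnd -0.0832, Chrng -0.386, Musk -0.237, Rapsn -0.433 and Dok7 -0.454. With a pseudocount of 0.1 against sarcomere genes they were Chrna1 -0.0207, Rapsn -0.101 and Dok7 -0.185. Leaving out a library gave -0.0539 to 0.0749 for Chrna1, -0.0336 to 0.218 for Chrng, -0.118 to 0.276 for Rapsn and -0.219 to 0.335 for Dok7. The cause of these shifts was not tested. The lowest genes, at 30 to 100 reads per library, carry the widest counting error.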
